A study of Mus musculus with 4 samples.

Results

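The 7 genes described here encode the parts of 2 regulatory pathways of the wound: the cytokine *Il10*, its receptor chains *Il10ra* and *Il10rb*, the cytokine *Tgfb1*, its receptors *Tgfbr1* and *Tgfbr2*, and *Socs3*, a feedback inhibitor of cytokine signalling. The members were found by symbol, and all 7 of them were present among the 20151 to 20473 genes of each library, or the 21739 genes listed over all 4 libraries. Cells of the skin around the wound were taken on day 7 after wounding and sequenced as single cells in droplets. The mice were C57/BL6j, 6 weeks old, with full-thickness skin wounds. Control mice had PBS injected around the wound edge. The hucMSC-Exo mice had the same volume carrying exosomes, the small vesicles shed by mesenchymal stem cells of human umbilical cord. Each library came from 1 mouse, with 2 Control and 2 hucMSC-Exo libraries, and the groups were read from the sample titles. File names carry letters that group the libraries otherwise, and these were left aside. The tissue label names a part of the gut, while the cell type label and the dissociation protocol give skin. Values of the 4 libraries are given throughout in the order Control 1, Control 2, hucMSC-Exo 1, hucMSC-Exo 2.

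Interleukin-10 is a cytokine that restrains macrophages and other myeloid cells. It binds a receptor of a ligand-specific chain, encoded by *Il10ra*, and a chain shared with other cytokines of the family, encoded by *Il10rb*; the kinases JAK1 and TYK2 then activate the transcription factor STAT3, and *Socs3* is a well-known STAT3 target. Transforming growth factor beta 1 is secreted in a latent form that has to be released by integrins, thrombospondin-1 or proteases. The active cytokine binds the type II receptor, encoded by *Tgfbr2*, which recruits and phosphorylates the type I receptor, encoded by *Tgfbr1*, and SMAD proteins carry the signal to the nucleus. Both cytokines are made by macrophages and regulatory T cells, and in skin TGF-beta is also known for keeping epidermal immune cells in place.

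The deposited matrices held 1098, 2422, 1539 and 2119 cells, 7178 in all, fewer than the study describes. Cells with 200 to 3000 genes and at most 10% mitochondrial UMIs (unique molecular identifiers, 1 per captured transcript) were kept, which left 952, 2074, 1416 and 2001 cells with median depths of 3747 to 4392.5 UMIs. Any 2 libraries shared at most 2 cell barcodes. *Ptprc*, the pan-leukocyte gene, had a UMI in 81.5% to 87.7% of the deposited cells. The 20 clusters were named from marker genes; 19 of them fell into 15 classes, each of cells like the type whose name it bears, and 187 cells stayed unnamed. RNA of the surrounding skin was found in all classes: *Krt14*, a keratinocyte gene, had a UMI in 35% to 91.8% of the cells of a named class. Basophils, mast cells and plasmacytoid dendritic cells had fewer than 10 cells in at least 1 library and were left out of the fits.

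*Socs3* is the member for which a target site of the pathway could be looked up. Its promoter is shown because it holds the spaced palindrome that STAT3 and other STAT proteins bind, TTCNNNGAA, which reads the same on both strands.

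Socs3 promoter: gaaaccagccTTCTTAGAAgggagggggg

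The capitals mark the motif. The stretch lies at chr11:117969502-117969530 on the minus strand of GRCm38.p6, with the motif 154 to 146 bases before the RefSeq start of *Socs3* and inside an intron of a non-coding transcript of the same gene that starts further upstream. Of 32851 RefSeq promoter windows of 300 bases, 2726 (8.30%) hold the motif. Windows were given for 4 members (*Tgfb1*, *Tgfbr1*, *Tgfbr2* and *Socs3*, 5 windows in all), and that of *Socs3* was the 1 with a match. On GRCm38, *Socs3* spans bases 117966079 to 117970047 of chromosome 11 on the minus strand, and *Il10* spans bases 131019845 to 131024974 of chromosome 1 on the plus strand. The receptor genes lie apart from each other: *Il10ra* at chromosome 9 (45253837 to 45269149), *Il10rb* at chromosome 16 (91406164 to 91425834), *Tgfbr1* at chromosome 4 (47353222 to 47414931) and *Tgfbr2* at chromosome 9 (116084293 to 116175360). *Tgfb1* lies at chromosome 7 (25687002 to 25705077). The matrices hold UMIs over whole genes, so that exons and UTRs cannot be separated.

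*Il10* was a rare transcript of macrophages and regulatory T cells. It was counted 726 times, in 206 of the 6443 kept cells. Levels are given as CPM (counts per 1000000 UMIs), over the summed cells of a class in a library. The regulatory T cells, named from *Foxp3* and related genes, had 189.7, 44.6, 62.1 and 153 CPM (112 ± 70.1, SD, n = 4). The macrophage class, which carried the complement genes *C1qa*, *C1qb* and *C1qc* and the mannose receptor gene *Mrc1*, had 86.9, 100.3, 184 and 69.7 CPM (110.3 ± 50.8, SD, n = 4). The ranges of these classes overlapped, and the libraries differed widely within each. A single cell held 14 of the 30 regulatory T cell UMIs in Control 1. Another held 14 of the 37 macrophage UMIs in hucMSC-Exo 1. Osteoclast-like macrophages, which carried *Ctsk* and *Acp5*, had 85.0, 59.5, 5.70 and 91.7 CPM, with hucMSC-Exo 1 far below the other libraries.

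**Figure D1:**
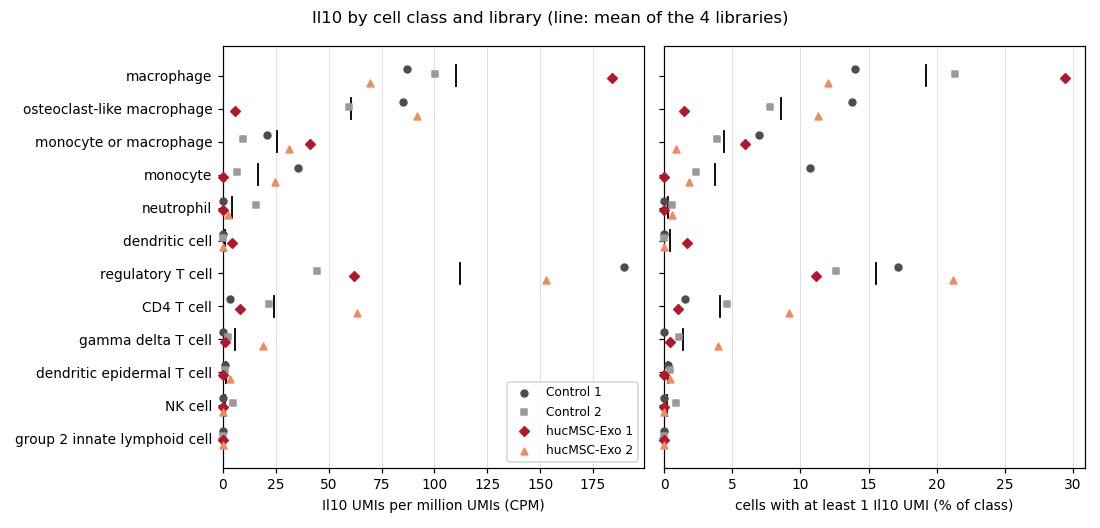
*Il10* by cell class (y axis) as the level in CPM (left) and the percent of cells with at least 1 UMI (right), with 1 point per library and a black line at the mean of the 4 libraries. Regulatory T cells and macrophages lie highest, at means of 112 and 110.3 CPM, and their points overlap.

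The other myeloid and lymphoid classes were lower and more uneven. A class whose markers fitted monocytes and macrophages alike had 20.7, 9.65, 41.1 and 31.0 CPM. The CD4 T cell class had 3.17, 22.0, 8.22 and 63.3 CPM, and hucMSC-Exo 2 stood above the others. This class also carried *Ccl5*, a gene of the CD8 or NKT-like marker list, at 2167, 1814, 899 and 1969 CPM. No CD8 or NKT-like class was formed, so such cells were not separated from it. Monocytes had 35.3, 6.62, 0 and 24.5 CPM. No *Il10* UMI was found in 189 group 2 innate lymphoid cells, 129 of them from hucMSC-Exo 1, which allows up to 1.59% of such cells to hold a captured UMI, in 104 basophils (up to 2.88%), in 49 plasmacytoid dendritic cells (up to 6.12%) or in 40 mast cells (up to 7.5%). In dendritic epidermal T cells, the resident gamma delta T cells of mouse epidermis, 3 of 1066 cells had a UMI. These limits cover counting error only and do not bound the share of cells that express the gene.

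Each class was set against the summed UMIs of all other named cells of the same library, in edgeR's quasi-likelihood test with the library as a block. *Il10* passed in 9 of 12 classes, 3 higher and 6 lower, against 39.1% of all gene-by-class tests (16.4% higher and 22.7% lower). The difference was a log2 of 2.61 ± 0.30 (SE) in macrophages (adjusted p = 4.64e-06), 2.04 ± 0.26 in regulatory T cells (adjusted p = 1.99e-06) and 1.55 ± 0.32 in osteoclast-like macrophages (adjusted p = 0.00103). The monocyte or macrophage class, monocytes and CD4 T cells did not pass, at 0.41, -0.50 and 0.27. Gamma delta T cells, the *Il17a*-type cells of the dermis, were lower by a log2 of -1.80. Neutrophils were lower by -1.70, and this call was lost without hucMSC-Exo 2 (-0.85, adjusted p = 0.22). The classes were drawn from the same cells whose genes are tested, although no member was used for the clustering. The p-values rest on how the difference within a library varied over the libraries of these 4 mice.

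*Il10* UMIs were spread unevenly over the cells. Of the 206 cells, 90 had a single UMI, while 20 cells with at least 10 UMIs held 300 UMIs, or 41.3% of the total, and the highest cell had 32. Macrophages, osteoclast-like macrophages, monocytes and the monocyte or macrophage class together, the macrophage lineage, held 474 of the UMIs (65.3%) while being 23.5% of the kept cells. The T cell classes together, the T lineage, held 228 (31.4%) while being 41.7% of the cells. The share of cells with a UMI was 16.9% in macrophages (7.25% after each cell was thinned to 1000 UMIs) and 14.9% in regulatory T cells (6.18% thinned), at median depths of 6993 and 4088 UMIs. In dendritic epidermal T cells it was 0.281% at a median depth of 3435 UMIs. Single cells also set some library values: all 24 UMIs of the monocyte or macrophage class in hucMSC-Exo 2 were from 1 cell, and in hucMSC-Exo 1 a single cell gave 24 of its 50.

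*Il10ra*, the chain that gives the receptor its specificity, had its highest means among the classes of the fits in the macrophage lineage. That lineage held 59.5% of its UMIs. Mast cells, not in the fits, had 633, 190, 0 and 199.9 CPM, from 13 UMIs in 40 cells. Macrophages had 104.6, 100.3, 109.5 and 115.5 CPM, the tightest set of values of any member in this class. Monocytes had 99.9, 82.7, 66.5 and 101.9 CPM. Dermal gamma delta T cells had 2.50, 5.37, 2.18 and 2.29 CPM, and every library was below every other class of the fits. The libraries of the macrophage and the gamma delta T cell class did not overlap. Here and for the following members, a class was tested against the mean of the other classes. All classes entered the same fit and shared an estimate of the spread, although their sums came from the same 4 mice. All members together passed in 54 of 84 tests, 34 higher and 20 lower, against 41.9% of all gene-by-class tests (24.6% higher and 17.3% lower), or in 49 of 72 without *Il10*, which had a class at 0 in every library. The balance of directions depended on the reference: against all other named cells, the test used for *Il10* above, 49 of 72 passed as well, but 22 higher and 27 lower. Of the 49 calls against the class mean, 7 were lost there, all of them higher, and none turned. Calls gained there were all lower. They were *Tgfbr2* and *Il10rb* in regulatory T cells, *Tgfbr2* in neutrophils and *Il10ra* in CD4 T cells. *Socs3* was gained in CD4 T cells and NK cells, and *Tgfbr1* in dendritic epidermal T cells. *Il10ra* was higher in 5 classes and lower in 4 of 12, led by macrophages (1.72 ± 0.16, SE, adjusted p = 1.18e-12) and gamma delta T cells (-3.93 ± 0.30, adjusted p = 7.77e-16). The 5 higher classes were the 4 of the macrophage lineage and neutrophils; against all other named cells, neutrophils (0.51, adjusted p = 0.0647) and osteoclast-like macrophages (0.49, adjusted p = 0.0753) did not pass. A UMI of *Il10ra* was found in 45.3% of macrophages (11.2% thinned) and in 1.35% of gamma delta T cells (0.249% thinned).

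*Il10rb*, the chain shared with receptors for other cytokines of the family, was carried by neutrophils as well. Neutrophils had 171, 213, 172 and 189 CPM at a median depth of 2107 UMIs, and osteoclast-like macrophages had 127, 180.4, 119.7 and 185 CPM. Macrophages had 99.2, 177, 219 and 149 CPM. In dendritic epidermal T cells it was 24.1, 15.3, 8.85 and 18.3 CPM, below all 4 values of each of those classes. The gene was higher in 5 classes and lower in 5 of 12, with the largest difference in neutrophils (2.44 ± 0.16, SE, adjusted p = 1.2e-18). The 5 higher classes were again neutrophils and those of the macrophage lineage. *Il10ra* in neutrophils was 34.3, 47.4, 70.9 and 62.9 CPM, a difference from the other classes of 1.12 ± 0.19.

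Both chains are needed for a complete receptor, so cells with a UMI of each were counted. They were 25%, 24.2%, 18.2% and 20.98% of the macrophage lineage. In the T lineage they were 1.51%, 1.13%, 0.300% and 1.41%, and the libraries did not overlap. The macrophage-lineage classes were deeper, with medians of 6357 to 7859.5 UMIs per cell against 3435 to 4452 in the T cell classes, and the part of depth in this gap was not tested. On the ligand side, *Il10* and *Tgfb1* were found together in 29 of 268 regulatory T cells (10.8%) and in 25 of 278 macrophages (8.99%).

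*Tgfb1* was found in all classes. NK cells, the cytotoxic innate lymphocytes, had 232, 411, 426 and 325 CPM. Group 2 innate lymphoid cells had 297, 294, 345 and 218 CPM, and gamma delta T cells 225, 367, 277 and 279 CPM. Regulatory T cells, at 209, 257, 197 and 195 CPM, and macrophages, at 156, 215, 189 and 198 CPM, lay near the middle of the order. Neutrophils had 103, 50.9, 20.3 and 55.4 CPM, the low end of the classes in the fits. *Tgfb1* was higher in 5 and lower in 2 of 12 classes, from 0.82 ± 0.13 in NK cells (adjusted p = 1.6e-06) to -1.52 ± 0.19 in neutrophils (adjusted p = 1.13e-09). The other lower class was the dendritic epidermal T cells, at -0.60 ± 0.14. The difference of group 2 innate lymphoid cells (0.47 ± 0.16) was lost without hucMSC-Exo 1, the library with 129 of the 189 cells (0.25, adjusted p = 0.425), and against all other named cells (0.44, adjusted p = 0.101).

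*Tgfbr1*, the type I receptor, had its highest values among the classes of the fits in macrophages. Osteoclast-like macrophages had 123, 58.8, 49.4 and 97.4 CPM, and macrophages had 53.0, 51.3, 79.6 and 60.5 CPM. In dendritic cells it was 6.67, 2.85, 4.04 and 13.8 CPM, below both in every library. The gene was higher in 4 and lower in 3 of 12 classes, with the calls of neutrophils (1.10) and the monocyte or macrophage class (0.65) lost against all other named cells (adjusted p = 0.0618 and 0.0951). Osteoclast-like macrophages were at 1.63 ± 0.22 (SE, adjusted p = 1.87e-08) and dendritic cells at -1.85 ± 0.38 (adjusted p = 0.000104). Mast cells, not in the fits, had 211, 902, 557 and 199.9 CPM, from 34 UMIs in 40 cells.

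*Tgfbr2*, the type II receptor that binds the ligand first, had the opposite lean, to some of the lymphocyte classes. Dendritic epidermal T cells had 214, 155, 154 and 158 CPM, NK cells 119, 154, 181 and 109 CPM and CD4 T cells 82.4, 136, 162 and 94.3 CPM. Dendritic cells had 16.7, 8.56, 8.08 and 12.52 CPM, less than any library of those 3 classes. Gamma delta and regulatory T cells had means of 76.8 and 62.7 CPM, below the macrophage mean of 112 CPM. Neither of these T cell classes was called (0.34 and -0.24). Against all other named cells, regulatory T cells were lower (-0.59, adjusted p = 0.0276), as were neutrophils (-0.83, adjusted p = 0.00238). Within the macrophage lineage, macrophages had 72.0, 126, 99.5 and 150.3 CPM. The monocyte or macrophage class had 33.6, 24.4, 6.57 and 18.1 CPM, and no library of it reached the lowest macrophage value. The gene was higher in 5 and lower in 3 of 12 classes, from 1.49 ± 0.15 in dendritic epidermal T cells (adjusted p = 3.88e-12) to -2.41 ± 0.29 in dendritic cells (adjusted p = 8.67e-10). Macrophages were at 1.06 ± 0.19, a call that turned to -0.31 when coarser clusters were used and was lost against all other named cells (0.61, adjusted p = 0.0791). The call of group 2 innate lymphoid cells (0.80) was lost there too (0.40, adjusted p = 0.272). The monocyte or macrophage class was at -1.64 ± 0.23. Both TGF-beta receptors had a UMI in 13%, 7.20%, 3.14% and 8.54% of macrophage-lineage cells, and in 5.84%, 2.68%, 2.55% and 2.70% of T-lineage cells, ranges that overlapped.

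**Figure D2:**
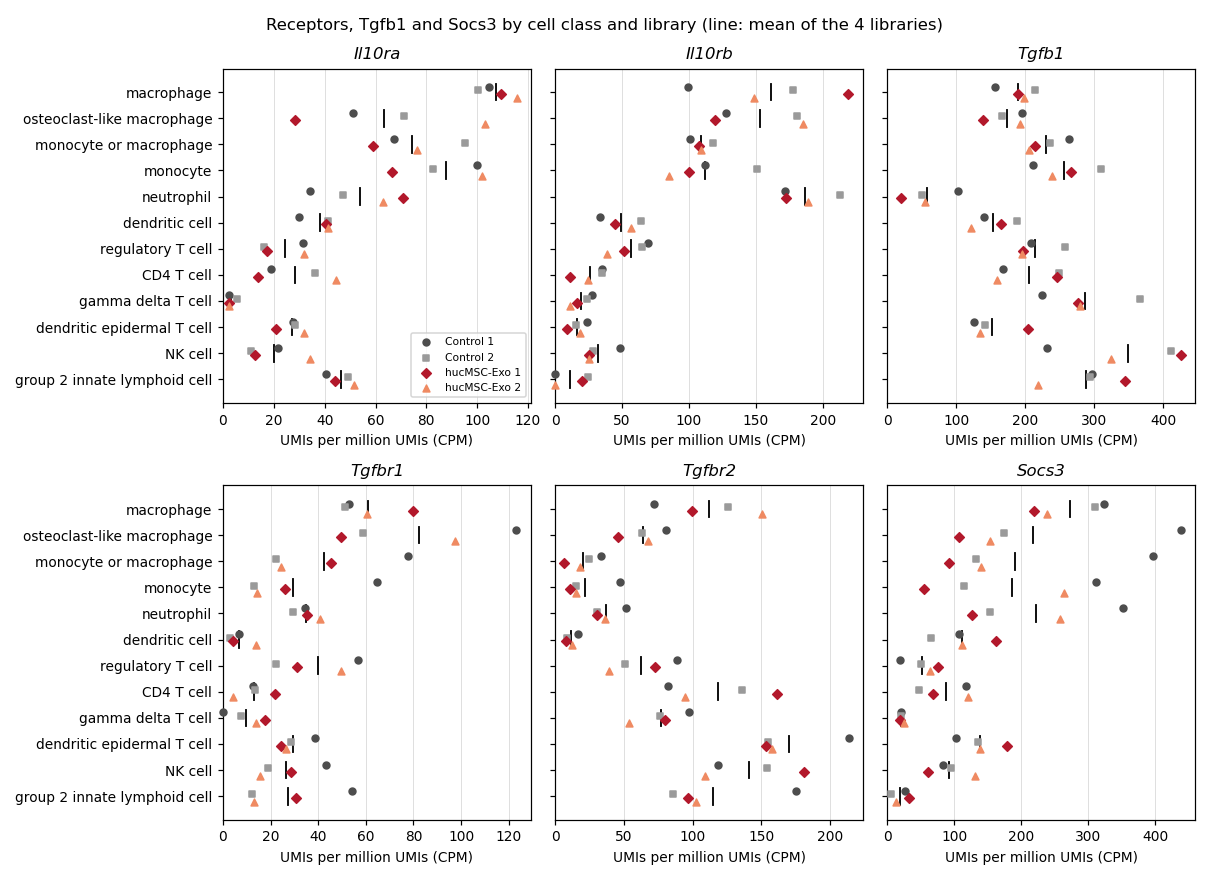
Level in CPM (x axis) of the receptor genes, *Tgfb1* and *Socs3* in the 12 classes of the fits, with 1 point per library and a black line at the mean of the 4 libraries. *Il10ra* and *Il10rb* are highest in myeloid classes, and *Tgfbr2* in dendritic epidermal T cells, NK cells and CD4 T cells. The neutrophils have the lowest *Tgfb1* level, at 20.3 to 103 CPM.

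*Socs3*, which blocks signalling by some of the STAT3-activating receptors, was highest in macrophages and neutrophils and differed between mice. Macrophages had 323, 310.2, 219 and 238 CPM, and neutrophils 351, 153, 127 and 257 CPM. Osteoclast-like macrophages had 438, 174, 106 and 154 CPM, and monocytes 311, 114, 55.4 and 264 CPM. In all 4 macrophage-lineage classes and in neutrophils, Control 1 was the highest library. Dermal gamma delta T cells had 19.97, 20.4, 18.5 and 24.6 CPM, below every library of these classes and close to each other. *Socs3* was higher in 5 and lower in 3 of 12 classes, from 1.58 ± 0.24 (SE) in neutrophils (adjusted p = 2.47e-07) and 1.54 ± 0.24 in macrophages (adjusted p = 3.38e-07) to -2.50 ± 0.34 in gamma delta T cells (adjusted p = 3.15e-08). The 5 higher classes were those of *Il10ra* and *Il10rb*.

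Ordered by mean level, most neighbouring classes could not be told apart. Of the 14 steps between 15 named classes, the number that exceeded the larger SD of the 2 classes was 0 for *Il10*, *Tgfb1* and *Socs3*, 1 for *Il10rb* and *Tgfbr2*, 2 for *Il10ra* and 3 for *Tgfbr1*. The genes whose class means followed a member most closely were also looked up, over 15 classes and 10159 genes, by Pearson correlation of log2(CPM + 1), as a description. For *Il10* they were *Iigp1* (0.91), an interferon-induced GTPase gene, *Axl* (0.89), a receptor for the uptake of dying cells, and *Zfp395* (0.86). For *Il10rb* they were *Tirap* (0.91), a Toll-like receptor adaptor gene, *Tnrc18* (0.90) and *Fnip2* (0.90), and for *Il10ra* *B4galt5* (0.84), *Metrnl* (0.83) and *Plau* (0.81). For *Tgfb1* they were *Eef1a1* (0.84), *Rpl22* (0.83) and *Rpl23a* (0.82), which encode parts of the translation machinery. The leading genes were *Mapre2* (0.92) for *Tgfbr1*, *Pip4k2b* (0.88) for *Tgfbr2* and *Vav1* (0.90) for *Socs3*. The class means share the libraries and their depth.

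Macrophage-lineage and T-lineage cells were then compared as sums per library, since these are the main sources of both cytokines. The IL-10 side was higher in the macrophage lineage: *Il10rb* by a log2 of 2.76 ± 0.19 (SE, adjusted p = 1.02e-06), *Il10ra* by 2.39 ± 0.15 (adjusted p = 5.15e-07), *Il10* by 1.76 ± 0.29 (adjusted p = 0.000458) and *Socs3* by 1.59 ± 0.26 (adjusted p = 0.000434). The TGF-beta receptors went opposite ways, *Tgfbr1* higher by 1.52 ± 0.15 (adjusted p = 1.17e-05) and *Tgfbr2* lower by -1.04 ± 0.21 (adjusted p = 0.00168). *Tgfb1* did not pass, at 0.29 ± 0.15 (adjusted p = 0.124). Its unscaled CPM was 196, 219.5, 199.98 and 211 in the macrophage lineage and 155, 254, 237 and 214 in the T lineage. It was higher in the macrophage lineage, the sign of the fit, in Control 1 alone, and nearly equal in hucMSC-Exo 2. Thus 6 of 7 members passed, 5 higher and 1 lower, against 60.7% of all 9725 genes (30.3% higher and 30.4% lower), a comparison in which most genes differ.

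The levels by library show how far apart the lineages lay. *Il10ra* was 86.4, 85.5, 57.3 and 97.4 CPM in the macrophage lineage and 22.3, 22.7, 12.52 and 20.3 CPM in the T lineage. *Tgfbr2* was 60.8, 47.0, 24.8 and 54.8 CPM against 166, 112, 118 and 85.9 CPM. Neither pair of ranges overlapped.

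**Figure D3:**
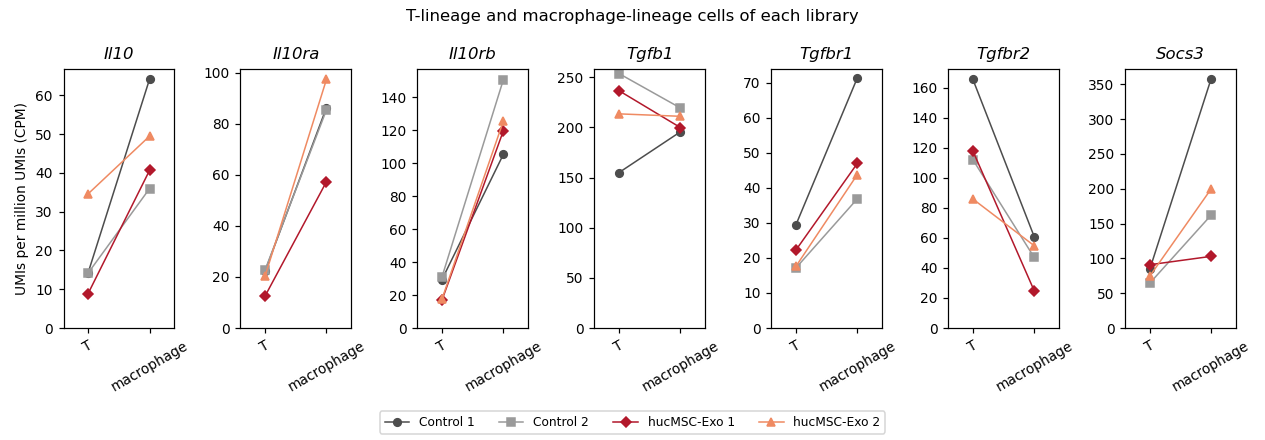
Level in CPM of each of the 7 genes in macrophage-lineage and T-lineage cells, with 1 point per library and lines joining the same library. *Il10ra* and *Il10rb* lie higher in the macrophage lineage and *Tgfbr2* lower in every library, while the *Tgfb1* points overlap.

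The wider pathways were read from a list of 22 genes for IL-10 and a list of 33 genes for TGF-beta. Of the IL-10 list, 14 genes were tested: 7 were higher in the macrophage lineage, 3 lower and 4 did not pass, with a median log2 difference of 0.52, against -0.02 over all genes. The counts of both lists stand against 60.7% of all genes called in this comparison. Higher genes included *Hmox1* (7.94), which degrades heme, *Il1rn* (7.90), the interleukin-1 receptor antagonist, *Etv3* (2.68), a transcriptional repressor, and *Zfp36* (1.82), which speeds the decay of cytokine mRNA. Lower were *Arid5a* (-1.77), an RNA-binding protein gene, and the signal carriers *Jak1* (-0.90) and *Stat3* (-0.82). Of the TGF-beta list, 25 genes were tested: 9 were higher, 8 lower and 8 did not pass, with a median of 0.25. Higher were *Thbs1* (8.06), whose product releases latent TGF-beta, *Tgfbi* (6.79), a TGF-beta-induced matrix protein gene, *Mmp14* (5.69), a membrane protease gene, and *Nrros* (2.88), which tethers latent TGF-beta on myeloid cells. Lower were *Itgae* (-6.94), which encodes the integrin CD103, *Itgb8* (-3.59), whose integrin releases latent TGF-beta, *Tgfbr3* (-2.96), a co-receptor gene, and *Smad7* (-2.17), a feedback inhibitor. The untested genes, among them *Il19*, *Il22* and *Tgfb2*, fell under the filter on low counts.

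The main question of the design was whether exosome treatment moved these genes. In edgeR's quasi-likelihood test, 0 of 68 member-by-class tests between hucMSC-Exo and Control passed in the 13 classes or clusters compared, and the smallest adjusted p was 0.558. DESeq2 also called 0. Over all genes the share called was 0.0383%, all of it in cluster 0 of the dendritic epidermal T cells (24 genes, 0.416% of that cluster). Dendritic epidermal T cells were compared by their clusters 0 and 8, because a leading gene of cluster 0 was on the NK list. An unadjusted p under 0.05 was reached by 7 of the 68 member tests, against 2.88% of all gene tests. The log2 differences of the members ran from -1.23 to 1.58 with a median of 0.00.

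Those 7 tests lay in 4 classes or clusters. *Il10* in the monocyte or macrophage class was 20.7 and 9.65 CPM in Control and 41.1 and 31.0 CPM in hucMSC-Exo, a log2 difference of 1.56 ± 0.47 (SE), on the few cells described above. In the same class *Tgfbr2* was 33.6 and 24.4 against 6.57 and 18.1 CPM (-1.20 ± 0.51), and *Socs3* was 396 and 132 against 92.8 and 139.6 CPM (-1.10 ± 0.47). The *Socs3* values overlapped between the groups, and the *Il10* and *Tgfbr2* values did not. In osteoclast-like macrophages *Socs3* was 438 and 174 against 106 and 154 CPM (-1.23 ± 0.49), with Control 1 far above the rest and a difference of -0.33 without it. In gamma delta T cells *Il10rb* was 27.5 and 23.6 against 16.4 and 10.9 CPM (-0.92 ± 0.38). In cluster 0, *Tgfb1* was 107 and 88.4 against 179 and 121 CPM (0.60 ± 0.24), and *Socs3* was 93.0 and 108 against 157 and 125 CPM (0.53 ± 0.23). With 2 mice a group, none of these passed after adjustment.

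In the classes with the most *Il10*, the groups overlapped in its level. *Il10* in macrophages was 86.9 and 100.3 CPM in Control and 184 and 69.7 CPM in hucMSC-Exo (log2 difference 0.28 ± 0.41, SE), and in regulatory T cells it was 189.7 and 44.6 against 62.1 and 153 CPM (0.18 ± 0.56). In macrophages, *Il10ra* was at 0.10 ± 0.28, *Tgfb1* at 0.04 ± 0.27, *Tgfbr1* at 0.32 ± 0.33, *Tgfbr2* at 0.38 ± 0.33, *Il10rb* at 0.37 ± 0.33 and *Socs3* at -0.50 ± 0.25. *Socs3* in regulatory T cells was at 0.81 ± 0.44.

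Leaving out a library made a call in 3 settings, each of 1 member. Without Control 2, *Socs3* in the monocyte or macrophage class was at -1.70 (adjusted p = 0.000500), and without Control 1 it was at -0.15. Without hucMSC-Exo 1, *Il10* in CD4 T cells was at 2.01 (adjusted p = 0.0148), against 1.34 with all libraries. Without hucMSC-Exo 2, *Il10* in osteoclast-like macrophages was at -3.46 (adjusted p = 0.00207), and without hucMSC-Exo 1 it turned to 0.37. Of the pathway lists, *Arid5a* in cluster 0 was called, at 1.08 ± 0.21 (adjusted p = 0.0372). The difference between the groups in the macrophage-lineage against T-lineage gap was called for 0 genes by edgeR (0% of 9725), with 240 at an unadjusted p under 0.05. Among the members, *Il10rb* reached an unadjusted p of 0.0475, at 0.74.

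**Figure D4:**
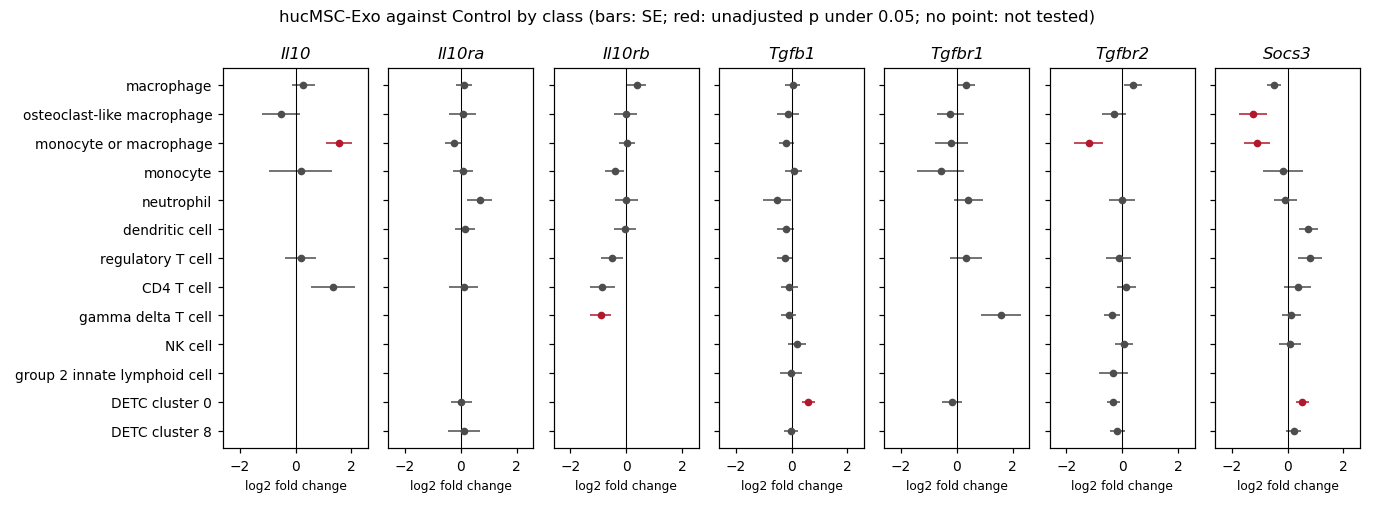
Log2 difference between hucMSC-Exo and Control (x axis) for the 7 genes in each class or cluster tested, as points with bars of 1 SE. The points run from -1.23 to 1.58 around a median of 0.00, and 0 of 68 passed after adjustment.

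The share of macrophage-lineage cells with a UMI was compared in the same way. *Socs3* was found in 65.5% and 45.8% of Control cells and in 36.2% and 42.2% of hucMSC-Exo cells, a difference of -16.5 percentage points. *Tgfbr2* was found in 33.5% and 23.5% against 12.6% and 21.7% (-11.4). *Il10* was found in 12% and 7.03% against 6.60% and 6.098% (-3.17), *Il10ra* in 43% and 40.3% against 31.1% and 40.2% (-5.97) and *Il10rb* in 53.5% and 57.8% against 52.8% and 49.5% (-4.48). For these 5 genes both Control mice were above both hucMSC-Exo mice, by little for *Il10*, *Il10ra* and *Il10rb*. *Tgfb1* (66.5% and 68.4% against 69.2% and 60.5%) and *Tgfbr1* (38% and 19.6% against 23.6% and 20%) overlapped. An exact permutation test, two-sided, cannot go below p = 0.3333 with 2 mice against 2, and gave that value for the 5 genes (Benjamini-Hochberg adjusted p = 0.467 over the 7 genes). The macrophage class made up 50%, 10.5%, 10.7% and 20.2% of the lineage. Its part in these shares was not tested. Without Control 1 the differences became -6.62 for *Socs3*, -6.36 for *Tgfbr2* and -0.682 for *Il10*. With cells thinned to 1000 UMIs, the differences of *Il10ra* (0.299), *Il10rb* (1.39) and *Tgfbr1* (0.877) had the other sign. The groups then overlapped for *Il10* (4.5% and 2.46% against 3.19% and 2.5%) and *Socs3* (22.5% and 12.8% against 7.99% and 14%). *Tgfbr2* stayed apart (7.5% and 4.75% against 2.88% and 3.75%). Median depths of the lineage were 7846, 7822, 6876 and 6775.5 UMIs, and the part of depth in the shares was not tested.

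Last, the cells that made *Il10* were compared with their neighbours. In the macrophage lineage 24, 41, 21 and 25 cells had an *Il10* UMI and 176, 542, 297 and 385 had none; their sums were compared with the library as a block. The median depths were 7439.5, 7405, 7064 and 5325 UMIs in the first set and 7892.5, 7852.5, 6869 and 6936 in the second. Of 6260 genes, 304 differed (4.86%), 199 higher (3.18%) and 105 lower (1.68%) in the *Il10*-positive cells. Both of the members called were receptors, 2 of 6. *Tgfbr2* was 79.0, 138, 77.0 and 108 CPM in *Il10*-positive cells and 58.3, 39.8, 21.2 and 51.8 CPM in the others (1.31 ± 0.26, SE, adjusted p = 0.00599). *Il10rb* was 153, 226, 209.9 and 173 CPM against 98.6, 145, 113 and 123 CPM (0.66 ± 0.17, adjusted p = 0.0348). The sets did not overlap for either gene. With cells thinned to 1000 UMIs, *Il10rb* turned to -0.013.

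The other members did not pass. *Socs3* was 389.5, 380.2, 119 and 325 CPM against 353, 145, 102 and 193 CPM (0.68, adjusted p = 0.0667). *Tgfbr1* was at 0.66 (adjusted p = 0.242), *Il10ra* at 0.37 (adjusted p = 0.381) and *Tgfb1* at -0.23 (adjusted p = 0.646). *Socs3* was higher in all 4 libraries, with the smallest gaps in Control 1 and hucMSC-Exo 1. With cells thinned to 1000 UMIs the differences of *Socs3* (-0.25) and *Il10ra* (-0.93) had the other sign.

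Of 4 chemokine genes that were looked up, 3 were higher in the *Il10*-positive cells, and within library and class 1 of them kept its call. *Ccl4* was 842, 1200.4, 1098 and 1402 CPM against 453, 263, 137 and 397 CPM (1.96 ± 0.23, SE, adjusted p = 0.000199). *Ccl2*, which attracts monocytes, was at 1.69 (adjusted p = 0.000701) and *Ccl3* at 1.59 (adjusted p = 0.00121), each higher in 4 of 4 libraries. *Ccl5* did not pass, at 0.98 (adjusted p = 0.407), and fell to -0.14 without hucMSC-Exo 1. The genes that led the comparison included *Ccl8* (2.11), the selenium transporter gene *Selenop* (1.41), the transcription factor gene *Klf2* (2.02), the complement gene *C1qc* (1.12) and the scavenger receptor genes *Cd163* (3.11) and *Mrc1* (1.10). Lower were *S100a4* (-1.46), the lactate transporter gene *Slc16a3* (-1.99), *Thbs1* (-1.37), *Adam8* (-1.45), the neutrophil alarmin gene *S100a9* (-2.58) and the monocyte gene *Chil3* (-1.80). Of the IL-10 list, *Zfp36* was higher (0.66) and 13 of 14 tested genes did not pass, while *Thbs1* and *Tgfbi* (-0.76) of the TGF-beta list were lower and 15 of 17 did not pass.

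**Figure D5:**
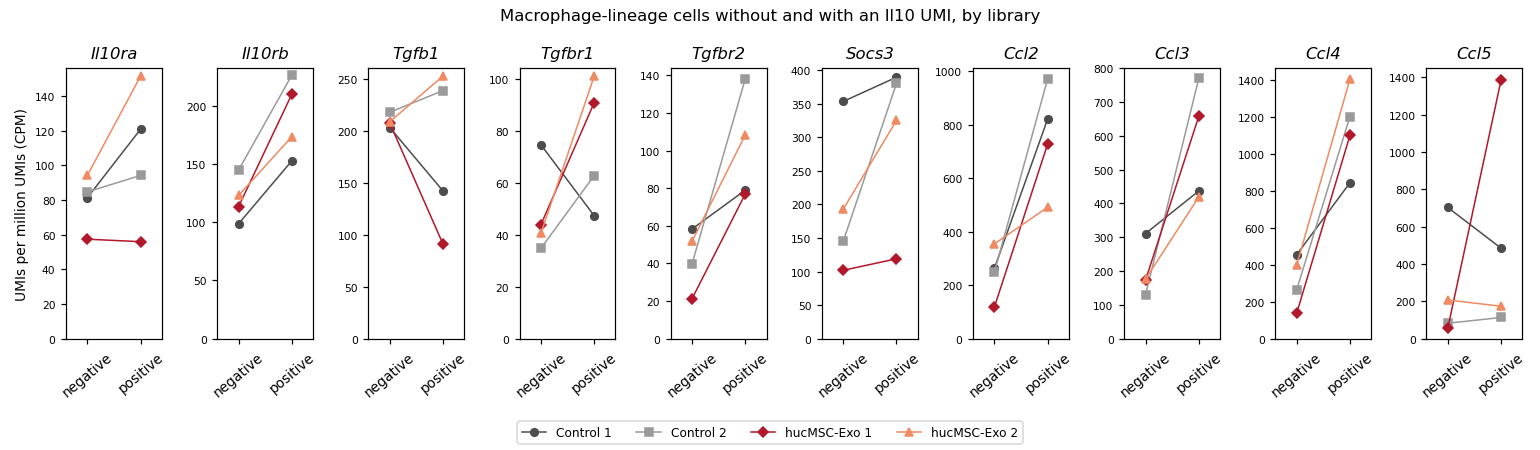
Level in CPM of 10 genes in macrophage-lineage cells with and without an *Il10* UMI, with 1 point per library and lines joining the same library. *Tgfbr2*, *Il10rb*, *Ccl2*, *Ccl3* and *Ccl4* are higher with *Il10* in all 4 libraries, and *Ccl5* is not.

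The split also moved the makeup of the lineage. The macrophage class was 42.3% of the *Il10*-positive cells and 18.4% of the lineage, and monocytes were 6.31% against 17.9%. When cells were compared within library and class, 15 of 1711 genes were called. *Ccl4* remained called at 1.01 (adjusted p = 0.0346), while *Ccl2* (0.65), *Ccl3* (0.50), *Tgfbr2* (0.88, adjusted p = 0.123) and *Il10rb* (0.50, adjusted p = 0.225) did not pass. *Tgfbr2* was also lost without Control 2 (1.04, adjusted p = 0.146). *Il10rb* was lost on leaving out any 1 library.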

How the data were processed

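The deposited values were counts: the authors made 1 matrix per library of UMI numbers for genes by cells, with Cell Ranger 6.1.2 and mm10 per the submitters' processing notes, without normalization. Each library came from the skin of 1 mouse. The kept cells held 4779405, 11243740, 6459007 and 9053510 UMIs. The members and gene lists were chosen with earlier results of these data known.

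Cells were clustered without correction between libraries (scanpy 1.11.5, counts scaled to 10000 per cell, 2000 variable genes, 30 components, 15 neighbours, Leiden resolution 1), with 66 genes left out, among them the members and both pathway lists. A cluster was named when 3 markers of a list were each found in at least 10% of its cells, by a rule set after the clusters were seen. Scrublet marked 30 cells (0.466%) as doublets, too few for use, so the top 10% of doublet scores were left out as an alternative instead.

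UMIs were summed per library and class with at least 10 cells and tested with edgeR 4.0.16 (R 4.3.3; quasi-likelihood test, TMM, filterByExpr), with Benjamini-Hochberg adjustment over the genes of a contrast and a threshold of 0.05. DESeq2 1.42.0 was an alternative. Comparisons between classes, lineages and *Il10*-positive and negative cells had the library as a block, and those between the groups did not. Contrasts of *Il10* with the mean of the other classes were replaced by a test against all other named cells, added after the data were seen. Shares were compared by exact permutation (scipy 1.17.1). The scripts were tested on simulated data. All members were named, with up to 4 genes per pathway list and direction by smallest p; the leading genes of the *Il10* comparison were chosen after their values were seen. Positions come from GENCODE vM21 and the promoter from RefSeq. For an undetected gene, the limit is 3 counts.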

Additional observations from a re-analysis of the deposited data

How the results depend on the processing

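Settings were changed one at a time. The call of 6 of 7 members between the lineages was the same in every alternative run. Between the groups, the count of members called was 0 with all libraries and 0 to 1 on leaving out a library; the remaining library of a group was then assumed to vary like the others. No pairing of the mice by replicate number was seen: the correlation of same-numbered libraries ran from -0.18 to 0.20 over 13 classes and clusters. With 2 libraries a group, this check cannot show whether same-numbered mice were handled together. With the replicate block 0 members and 71 genes were called, and with a crossed replicate block 0 members and 107 genes, against 24 genes without one. The direction of *Tgfbr2* in macrophages against the other classes turned at Leiden resolution 0.6 (-0.31), that of *Il10* in osteoclast-like macrophages between the groups without hucMSC-Exo 1 (0.37, the other libraries giving down to -3.46), and that of *Ccl5* between *Il10*-positive and negative cells without hucMSC-Exo 1 (-0.14, the others giving up to 1.69). With cells thinned to 1000 UMIs, the last comparison turned for *Il10ra* (-0.93), *Il10rb* (-0.013) and *Socs3* (-0.25), and the shares of macrophage-lineage cells turned for *Il10ra* (0.299 percentage points), *Il10rb* (1.39) and *Tgfbr1* (0.877). The causes were not tested. The 304 genes that differed with *Il10* became 453 without a filter on low counts, 0 with no replicate block, 68 with thinned cells, 15 within library and class, and 111 to 399 on leaving out a library (111 without Control 2, 191 without hucMSC-Exo 1 and 169 without hucMSC-Exo 2). Thinning leaves fewer counts, and the comparison within class fewer cells and genes. On leaving out a library, the difference in shares lay between -5.65 and -0.682 for *Il10*, -10.5 and -1.41 for *Il10ra*, -6.63 and -2.33 for *Il10rb*, -6.98 and 1.71 for *Tgfb1*, -16.2 and 2.24 for *Tgfbr1*, -16.4 and -6.36 for *Tgfbr2*, and -26.3 and -6.62 for *Socs3*. Of the class tests of single members, 540 alternatives were the same, 21 lost the call and 1 turned.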

Other observations

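The 106, 281, 75 and 69 deposited cells with more than 3000 genes, which the filter left out, also held the members. *Il10* was 22.7, 15.7, 9.68 and 19.8 CPM in them and was found in 13.2%, 8.90%, 6.67% and 5.80% of the cells, at median depths of 14811 to 20033 UMIs. *Tgfbr1* was 60.3, 63.3, 40.5 and 36.0 CPM, higher in both Control libraries than in both hucMSC-Exo libraries. *Socs3* was 138, 71.0, 67.7 and 109.7 CPM, again highest in Control 1. No test was made on these cells.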
